A study of Homo sapiens with 8 samples.

Results

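The genes described here encode the mitochondrial respiratory chain and the ATP synthase. They were chosen by gene symbol in the deposited tables: NDUF genes of the A, B, C, S and V series, SDHA to SDHD, the UQCR genes and CYC1, the COX genes of subunits 5 to 8, the ATP5 genes, and the MT- genes for ND, CO, ATP and CYB subunits. The rule found 94 genes of the 14279 in either table. At day 2 it found 88 of 11644 genes, of which 75 are encoded in the nucleus and 13 in mitochondrial DNA, and all 88 passed the filter on low counts. At day 0 it found 94 of 14070 genes, 81 of them nuclear. ATP5SL, COX6B2, COX7A1, NDUFA4L2, NDUFA6 and NDUFC2-KCTD14 had values at day 0 only. Among the names matched, ATP5S, ATP5SL, UQCRHL (a copy of UQCRH) and the readthrough gene NDUFC2-KCTD14 are not counted with any complex, and NDUFA4 is counted with complex IV, where its protein is found.

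RNA was sequenced from SETD7 KO and WT cells of H1, a widely used line of human embryonic stem cells. SETD7 encodes a lysine methyltransferase. The groups were SETD7 KO cells at day 0 (1 library), WT cells at day 0 (1 library), SETD7 KO cells at day 2 (3 libraries) and WT cells at day 2 (3 libraries) of a protocol that induces hematopoietic differentiation. All cells were grown in mTESR medium, and the labels do not say whether the KO is 1 clone or several, how the gene was disrupted, or whether replicates were separate cultures. P-values therefore measure only the spread between these libraries, which may be technical.

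Electrons enter the chain at complex I (NADH dehydrogenase) or complex II (succinate dehydrogenase), pass through ubiquinone to complex III, through cytochrome c to complex IV (cytochrome c oxidase), and reduce oxygen. Complexes I, III and IV pump protons, and complex V (ATP synthase) uses the proton gradient to make ATP. Complexes I, III, IV and V combine subunits from both genomes, whereas complex II is wholly nuclear. Pluripotent stem cells rely largely on glycolysis, and the use of the chain generally increases as they differentiate. Nuclear subunit genes are known targets of the transcription factors NRF1, GABP (an ETS factor), YY1 and ERR alpha.

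Day 2 libraries held 27880068 to 39553614 counts, and the depth at day 0 is unknown. SETD7 was at 32.9, 28.9 and 33.7 CPM (counts scaled to library size, with TMM factors) in the KO libraries and at 54.8, 56.2 and 55.6 CPM in the WT libraries (log2 fold change -0.80, SE 0.058; edgeR adjusted p 9.51e-13). At day 0 SETD7 was at 1.48 FPKM in KO and 3.53 FPKM in WT cells. SETD7 mRNA was thus lower in KO libraries but present, and counts per gene cannot show whether the remaining mRNA is disrupted. Markers of pluripotent cells (8 of at least 1 FPKM) summed to 2093 FPKM in KO and 2091 FPKM in WT cells at day 0. The 2 nascent mesoderm markers of at least 1 FPKM in either library summed to 2.80 and 4.56 FPKM. At day 2, pluripotent markers summed to 2827 to 2841 CPM in KO and 2711 to 2733 CPM in WT libraries. Of 7, 2 rose (DNMT3B, 0.17, and TDGF1, 0.13) and 2 fell by more (NANOG, -0.57, and PODXL, -0.36). Nascent mesoderm markers summed to 5575 to 5628 CPM in KO and 5293 to 5306 CPM in WT libraries. Without APLNR they summed to 2936 to 3009 CPM in KO and 2881 to 2932 CPM in WT libraries. Of 8, 3 rose (APLNR, MIXL1 and GSC) and 2 fell (EVX1, -0.81, and T, -0.26). MIXL1 lost its call without KO replicate 2 or 3 or WT replicate 2 (edgeR adjusted p 0.069 to 0.0968). With replicate number as a block it was also lost (edgeR adjusted p 0.0587). Definitive endoderm markers summed to 9191 to 9354 CPM in KO and 8360.3 to 8460.2 CPM in WT libraries, most of it CER1, which rose; without CER1 they summed to 856 to 875 CPM in KO and 923 to 942 CPM in WT libraries, and SOX17 fell (-0.56). Neural ectoderm markers summed to 1009 to 1067 CPM in KO and 966 to 986 CPM in WT libraries, and 2 of the 3 measured rose, NES and ZIC2. The other, OTX2, lay lower in all KO than in all WT libraries and did not pass (-0.09, edgeR adjusted p 0.0694). At day 0 the 4 neural ectoderm markers of at least 1 FPKM in either library summed to 104 FPKM in KO and 157 FPKM in WT cells. Markers of amnion and trophoblast were low, at 43.7 to 45.2 CPM in KO and 55.1 to 56.2 CPM in WT libraries, and 3 of the 4 measured fell, TFAP2C, ISL1 and GATA3. The part of these marker differences in the results below was not tested, and in bulk RNA fewer cells of a type and less RNA per cell cannot be told apart. KO replicate 1 stood apart from the other libraries for the nuclear genes described here: it was the lowest of the 6 libraries in 55 of 75 nuclear genes, against 21.6% of all genes tested. Counts without it are therefore given. Members that lost their call without it are named, with values where a called fold change moved by over 1.5 times.

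At day 2, 24 nuclear members fell and none rose, as described below, and the promoters of 5 of those lowered are shown. RefSeq (GRCh38.p14) gives a promoter, from 250 bases before to 50 bases after the gene's start, for 59 of the 75 nuclear members and 21 of the 24 lowered. The motifs searched, on both strands, were GCGCA and GCGC with 1 base between them for NRF1, CCGGAAG for ETS factors, AAGATGGCG for YY1 and TCAAGGTCA for ERR. ATP5J (chr21:25735005-25735304, minus strand) encodes a stalk subunit of the ATP synthase, ATP5C1 (chr10:7787927-7788226, plus strand) the central stalk gamma subunit, UQCRC1 (chr3:48609597-48609896, minus strand) a core protein of complex III, COX5B (chr2:97645812-97646111, plus strand) a complex IV subunit, and NDUFB11 (chrX:47144653-47144952, minus strand) a complex I subunit that had the smallest p. Sequences run 5′ to 3′ on the gene's strand, and capitals mark the motif matches, which do not overlap one another.
ATP5J: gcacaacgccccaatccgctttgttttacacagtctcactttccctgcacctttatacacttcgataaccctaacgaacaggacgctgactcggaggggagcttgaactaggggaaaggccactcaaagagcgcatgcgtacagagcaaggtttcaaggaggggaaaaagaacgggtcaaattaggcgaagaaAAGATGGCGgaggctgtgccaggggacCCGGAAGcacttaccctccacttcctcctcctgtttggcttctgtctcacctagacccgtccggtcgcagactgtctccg
ATP5C1: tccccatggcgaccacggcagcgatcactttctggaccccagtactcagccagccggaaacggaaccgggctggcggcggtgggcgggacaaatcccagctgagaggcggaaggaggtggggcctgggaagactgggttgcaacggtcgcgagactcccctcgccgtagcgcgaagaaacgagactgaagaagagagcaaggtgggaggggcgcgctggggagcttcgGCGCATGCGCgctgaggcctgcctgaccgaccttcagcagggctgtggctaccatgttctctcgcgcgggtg
UQCRC1: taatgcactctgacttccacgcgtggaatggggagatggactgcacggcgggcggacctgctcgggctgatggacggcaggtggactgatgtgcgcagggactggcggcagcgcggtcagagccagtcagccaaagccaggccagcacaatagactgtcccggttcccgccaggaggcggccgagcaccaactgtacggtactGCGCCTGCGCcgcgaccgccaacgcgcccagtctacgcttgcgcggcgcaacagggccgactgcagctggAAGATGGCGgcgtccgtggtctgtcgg
COX5B: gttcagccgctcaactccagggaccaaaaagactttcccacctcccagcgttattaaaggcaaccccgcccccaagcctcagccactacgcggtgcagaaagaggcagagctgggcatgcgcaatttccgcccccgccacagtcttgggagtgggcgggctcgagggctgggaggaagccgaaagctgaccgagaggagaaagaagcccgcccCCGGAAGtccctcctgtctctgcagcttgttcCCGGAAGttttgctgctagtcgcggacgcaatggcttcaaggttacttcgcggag
NDUFB11: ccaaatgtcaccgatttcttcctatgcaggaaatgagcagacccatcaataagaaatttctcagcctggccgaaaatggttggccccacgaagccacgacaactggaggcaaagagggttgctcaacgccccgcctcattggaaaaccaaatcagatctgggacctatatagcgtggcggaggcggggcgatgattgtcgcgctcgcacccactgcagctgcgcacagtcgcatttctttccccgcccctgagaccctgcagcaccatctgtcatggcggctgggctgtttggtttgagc
ATP5J holds a YY1 and an ETS match, ATP5C1 an NRF1 match, UQCRC1 an NRF1 and a YY1 match, COX5B a pair of ETS matches, and NDUFB11 none. These are descriptions of letters, not of bound sites. The 5 promoters do not stand for all the lowered members. NDUFS6, which had the next smallest p after NDUFB11, also holds no match.

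The NRF1 letters were in 15 of 59 nuclear member promoters (25.4%), against 12.2% of the 9383 promoters of tested genes and 6.28% of all 27305 promoters. The ETS letters were in 18 (30.5%), against 20.3% of tested genes and 10.7% of all. The YY1 letters were in 7 (11.9%), against 4.24% and 1.85%, and the ERR letters in 1 (1.69%), against 0.171% and 0.359%. All of these shares were higher in the members than in the tested genes. Among the 21 promoters of lowered members, NRF1 was in 4 (19%), ETS in 5 (23.8%), YY1 in 2 (9.52%) and ERR in 0, so no motif was more frequent in the lowered members than in all 59.

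At day 2, 24 of the 75 nuclear members (32%) fell in SETD7 KO cells, and none rose. Over all 11475 genes tested, edgeR called 11% lower and 12.3% higher at an adjusted p under 0.05, so the share of nuclear members that fell was higher than the background and the share that rose was lower. No nuclear member was higher at an unadjusted p under 0.05 in edgeR (0 of 75), while 36 were lower at that unadjusted p. DESeq2 (0) and limma-voom (0) also called none higher at an adjusted p under 0.05. The median log2 fold change of the nuclear members was -0.13, against -0.0026 over all tested genes, and 65 of 75 were below 0, against 50.6% of all tested genes. The changes were small, from -0.56 to 0.20 on the log2 scale. All 3 KO libraries lay below all 3 WT libraries in 33 nuclear members (background 18.8%) and above them in 0 (background 18.9%).

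The summed level of the nuclear members was 5818, 6470.2 and 6312 CPM in the KO libraries and 6892, 6564 and 6720.1 CPM in the WT libraries. The genotypes did not overlap, but KO replicate 2 lay close to the lowest WT library and KO replicate 1 far below both. Relative to the WT mean of each gene, the median over nuclear members was -0.21 in KO replicate 1, -0.05 in KO replicate 2 and -0.10 in KO replicate 3 on the log2 scale, and 0.03, -0.03 and 0.00 in WT replicates 1, 2 and 3. Without KO replicate 1, 15 nuclear members were lower (background 9.84%), 13 of them among the 24, and 0 were higher (background 11.2%), with a median of -0.08.

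The 13 mitochondrially encoded members did not share this pattern. edgeR called none of them lower, also at an unadjusted p under 0.05 (0 of 13) and by DESeq2 (0) and limma-voom (0), and it called 2 of 13 higher, MT-ND4 and MT-ND6, near the background of 12.3%. Their median log2 fold change was 0.00, with a range of -0.34 to 0.51. All 3 KO libraries lay below all 3 WT libraries in 2 of the 13 (background 18.8%) and above them in 2 (background 18.9%). Their summed level was 22149.9, 24499 and 24471 CPM in the KO libraries and 23571, 23021 and 22903 CPM in the WT libraries, so the genotypes overlapped. As a share of all counts they took 2.24%, 2.46% and 2.46% in KO and 2.34%, 2.29% and 2.28% in WT libraries. The difference between nuclear and mitochondrially encoded members is given by these counts and medians and was not tested, since genes are not replicates.

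**Figure D1:**
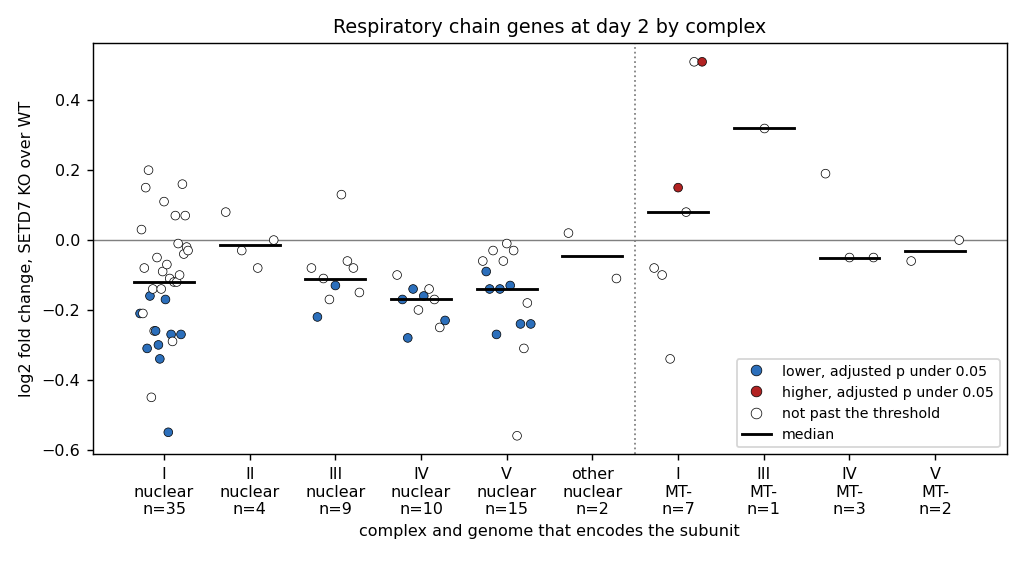
Log2 fold change (SETD7 KO over WT, day 2, 3 libraries each) of the 88 respiratory chain genes by complex, with nuclear genes left and mitochondrially encoded (MT-) genes right of the dotted line. Each point is a gene, filled where edgeR's adjusted p was under 0.05, and bars are medians: the nuclear groups for complexes I, III, IV and V have medians of -0.11 to -0.17, complex II lies near 0, and the only filled points above 0 are MT-ND4 and MT-ND6.

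Complex I had 35 nuclear members, of which 10 fell (background 11%; median log2 fold change -0.12). NDUFB11, a supernumerary subunit of the membrane arm, was at 63.2, 68.9 and 64.4 CPM in KO and 83.5, 79.1 and 80.2 CPM in WT libraries. Every KO library lay well below every WT library (log2 fold change -0.30, SE 0.0461, edgeR adjusted p 5.53e-06). NDUFS6, a zinc-binding accessory subunit of the matrix arm, was at 64.2, 70.9 and 71.7 CPM in KO and 84.6, 82.7 and 81.5 CPM in WT libraries, again without overlap (-0.27, SE 0.0466, edgeR adjusted p 4.7e-05). NDUFB2, of the membrane arm, was at 26.5, 34.1 and 32.4 CPM in KO and 38.3, 38.6 and 40.9 CPM in WT libraries (-0.34, SE 0.0713, edgeR adjusted p 0.000656). NDUFC1, also of the membrane arm, was at 33.8, 36.6 and 32.6 CPM in KO and 39.7, 42.1 and 42.1 CPM in WT libraries (-0.27, SE 0.0589, edgeR adjusted p 0.000956). These 4 kept their call under every alternative run.

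The other supernumerary subunits that fell were NDUFB8 (-0.55), NDUFA2 (-0.31), NDUFB1 (-0.26), NDUFA1 (-0.21), NDUFB6 (-0.17) and NDUFA5 (-0.16). NDUFB8 was at only 4.80, 6.21 and 5.55 CPM in KO and 8.36, 7.04 and 8.86 CPM in WT libraries. All 10 lowered genes were among the 28 supernumerary subunits, which surround the catalytic core (median -0.15). Of the 7 nuclear core subunits, which carry the flavin and iron-sulfur centres, none fell or rose (median -0.02). Among them, NDUFS1, NDUFS7 and NDUFV2 averaged under 10 CPM in both genotypes (SE 0.134, 0.133 and 0.182). A change as small as the supernumerary median could have been missed in these genes. At an unadjusted p under 0.05 edgeR had 1 core gene lower and 0 higher. DESeq2 and limma-voom called 0 at an adjusted p under 0.05. The core genes included NDUFV1, the NADH-binding subunit, at 79.7, 82.7 and 89.4 CPM in KO and 79.2, 80.3 and 80.4 CPM in WT libraries (0.07, edgeR adjusted p 0.302). NDUFS3, at 53.1, 55.2 and 55.4 CPM in KO and 59.8, 58.2 and 59.6 CPM in WT libraries, did not overlap and did not pass (-0.12, edgeR adjusted p 0.0751). The difference between core and supernumerary members was not tested. Supernumerary transcripts were also shorter, with a median of 679 bases against 1039 bases for core transcripts. Without KO replicate 1, 5 complex I genes were lower: NDUFA1, NDUFA2, NDUFA5, NDUFB1 and NDUFB6 lost their call, and NDUFB1 and NDUFB6 also without WT replicate 1. NDUFA5 was then at -0.10 (edgeR adjusted p 0.0932). The most abundant complex I genes per kb of transcript, NDUFS5 (329.8 CPM per kb in KO and 353 in WT) and NDUFB4 (179.8 in KO and 192 in WT), did not pass with all libraries but did without KO replicate 2 (edgeR adjusted p 0.0251 and 0.0279).

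Complex II showed no called gene among its 4 members (edgeR 0 lower and 0 higher, also at an unadjusted p under 0.05, by DESeq2 and by limma-voom), with a median of -0.01. SDHA, the flavoprotein that oxidizes succinate, was at 42.8, 41.7 and 45.1 CPM in KO and 40.8, 42.8 and 38.6 CPM in WT libraries (0.08, edgeR adjusted p 0.323). SDHB, the iron-sulfur subunit, was at 51.6, 56.5 and 57.1 CPM in KO and 56.3, 56.7 and 55 CPM in WT libraries (-0.03, edgeR adjusted p 0.763). SDHD, a membrane anchor, was at 41.6, 46.4 and 45.8 CPM in KO and 44.1, 44.9 and 44.9 CPM in WT libraries. SDHC, the other anchor, was at 116, 119.7 and 119 CPM in KO and 129, 120.3 and 125 CPM in WT libraries (-0.08, edgeR adjusted p 0.147). In SDHA, SDHB and SDHD the genotypes overlapped.

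In complex III, 2 of 9 nuclear members fell (background 11%; median -0.11). UQCR10, a small subunit, was at 60.1, 69.6 and 64.9 CPM in KO and 79.9, 70.1 and 76.0 CPM in WT libraries (-0.22, SE 0.0534, edgeR adjusted p 0.00335). UQCRC1 was at 129.9, 130.3 and 131 CPM in KO and 140.1, 146 and 143 CPM in WT libraries (-0.13, SE 0.0362, edgeR adjusted p 0.00586). The KO libraries of UQCRC1 were nearly equal, and KO replicate 1 was not apart from the others. Both kept their call under every alternative run. CYC1, the cytochrome c1 that passes electrons on, did not overlap between genotypes and did not pass (-0.08, edgeR adjusted p 0.1), as was the case for UQCRQ (-0.15), which passed without KO replicate 2 or 3 (edgeR adjusted p 0.015 and 0.0419) and by limma-voom (adjusted p 0.0475). UQCRFS1, the Rieske iron-sulfur protein, was at -0.06. UQCRH was the most abundant per kb (395 CPM per kb in KO and 419 in WT, edgeR adjusted p 0.148; 0.0329 without KO replicate 2 and 0.0435 without WT replicate 2). Without KO replicate 2, 5 genes of complex III were lower.

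In complex IV, 5 of 10 nuclear members fell (background 11%; median -0.17), and all 10 were below 0. COX4I1, a complex IV subunit that the name rule leaves out, did not pass (-0.07, edgeR adjusted p 0.213). NDUFA4, once assigned to complex I, was at 166, 193 and 177 CPM in KO and 218, 204 and 208 CPM in WT libraries (-0.23, SE 0.0437, edgeR adjusted p 0.000534). COX5B was at 95.7, 108 and 103 CPM in KO and 121, 109 and 114 CPM in WT libraries (-0.17, SE 0.0450, edgeR adjusted p 0.00643). The highest KO library of COX5B was just below the lowest WT library. COX6B1, which faces the intermembrane space, was at 78.6, 87.3 and 84.5 CPM in KO and 93.1, 91.0 and 91.8 CPM in WT libraries (-0.14, SE 0.0439, edgeR adjusted p 0.0177). COX6A1 was at 24.4, 32.5 and 31.8 CPM in KO and 38.0, 34.5 and 34.5 CPM in WT libraries (-0.28, SE 0.0888, edgeR adjusted p 0.0344). COX7A2, the isoform of non-muscle tissues, also fell (-0.16, edgeR adjusted p 0.0371). All 10 were lowest in KO replicate 1. Only NDUFA4 kept its call under every alternative run: 2 genes were lower without KO replicate 1, 1 without WT replicate 1 and 2 without WT replicate 3. Without KO replicate 1 the calls of COX6A1 (-0.15, edgeR adjusted p 0.155), COX7A2 (-0.08, edgeR adjusted p 0.154) and COX6B1 (-0.09, edgeR adjusted p 0.12) were lost. COX5B lost its call without WT replicate 1 (edgeR adjusted p 0.0689). COX6A1 also lost it without WT replicate 1, 2 or 3, and COX6B1 and COX7A2 without WT replicate 1 or 3 (edgeR adjusted p 0.0521 to 0.164). Upper-quartile scaling also removed the calls of COX6A1 and COX7A2 (edgeR adjusted p 0.0507 and 0.0684). COX7A2 lost its call with replicate number as a block too (edgeR adjusted p 0.0509). COX7C was the most abundant per kb (243 CPM per kb in KO and 272 in WT) and did not pass (-0.17, edgeR adjusted p 0.215), but it passed without KO replicate 2 (edgeR adjusted p 0.0184).

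In the ATP synthase, 7 of 15 nuclear members fell (background 11%; median -0.14), and all 15 were below 0. Of the 5 subunits of the catalytic F1 part, 3 fell: ATP5E, ATP5C1 and ATP5B. ATP5E, the epsilon subunit, was at 99.7, 114 and 116 CPM in KO and 142, 125 and 130.0 CPM in WT libraries (-0.27, SE 0.0545, edgeR adjusted p 0.00138). ATP5C1 was at 159, 169 and 171 CPM in KO and 184, 183 and 184 CPM in WT libraries (-0.14, SE 0.0352, edgeR adjusted p 0.00284). ATP5B, the catalytic beta subunit and the most abundant nuclear gene of the complex per kb (392 CPM per kb in KO and 416 in WT), fell by little (-0.09, SE 0.0301, edgeR adjusted p 0.0331). ATP5B lost its call without KO replicate 1 or 3 or without any 1 of the WT replicates, and with upper-quartile scaling, library size alone or replicate number as a block (edgeR adjusted p 0.0746 to 0.126). ATP5A1, the alpha subunit, was at -0.06 and did not pass.

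Of the 4 genes of the peripheral stalk, which holds the catalytic part still, 3 fell. ATP5J was at 46.9, 52.8 and 49.6 CPM in KO and 60.1, 54.6 and 61.5 CPM in WT libraries (-0.24, SE 0.0549, edgeR adjusted p 0.00141). ATP5F1 was at 182, 191 and 190.5 CPM in KO and 211, 204 and 204 CPM in WT libraries (-0.14, SE 0.0340, edgeR adjusted p 0.00304). ATP5O fell by 0.24 on the log2 scale and lost its call without KO replicate 1 or 3 or WT replicate 2 (edgeR adjusted p 0.0698 to 0.0963). Of the 3 genes for the rotating c ring, which encode the same mature protein, ATP5G3 fell (-0.13, edgeR adjusted p 0.0158), but not without KO replicate 1 (-0.07, edgeR adjusted p 0.0999) or WT replicate 1 (edgeR adjusted p 0.0952), while ATP5G1 (-0.06) and ATP5G2 (-0.01) did not pass. The membrane subunits ATP5I, ATP5J2 and ATP5L had the lowest median (-0.31) and no call, with 0 at an unadjusted p under 0.05 in edgeR and 0 by DESeq2 and limma-voom. ATP5I was at 15.9, 24.6 and 23.0 CPM in KO and 36.6, 30.8 and 25.8 CPM in WT libraries, and KO replicate 1 lay far below the others (-0.56, SE 0.229, edgeR adjusted p 0.17). Without KO replicate 1 it passed (-0.38, edgeR adjusted p 0.0131), as did ATP5J2 (-0.16, edgeR adjusted p 0.0291). ATP5L passed without KO replicate 2 or WT replicate 2 (edgeR adjusted p 0.0205 and 0.0425).

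**Figure D2:**
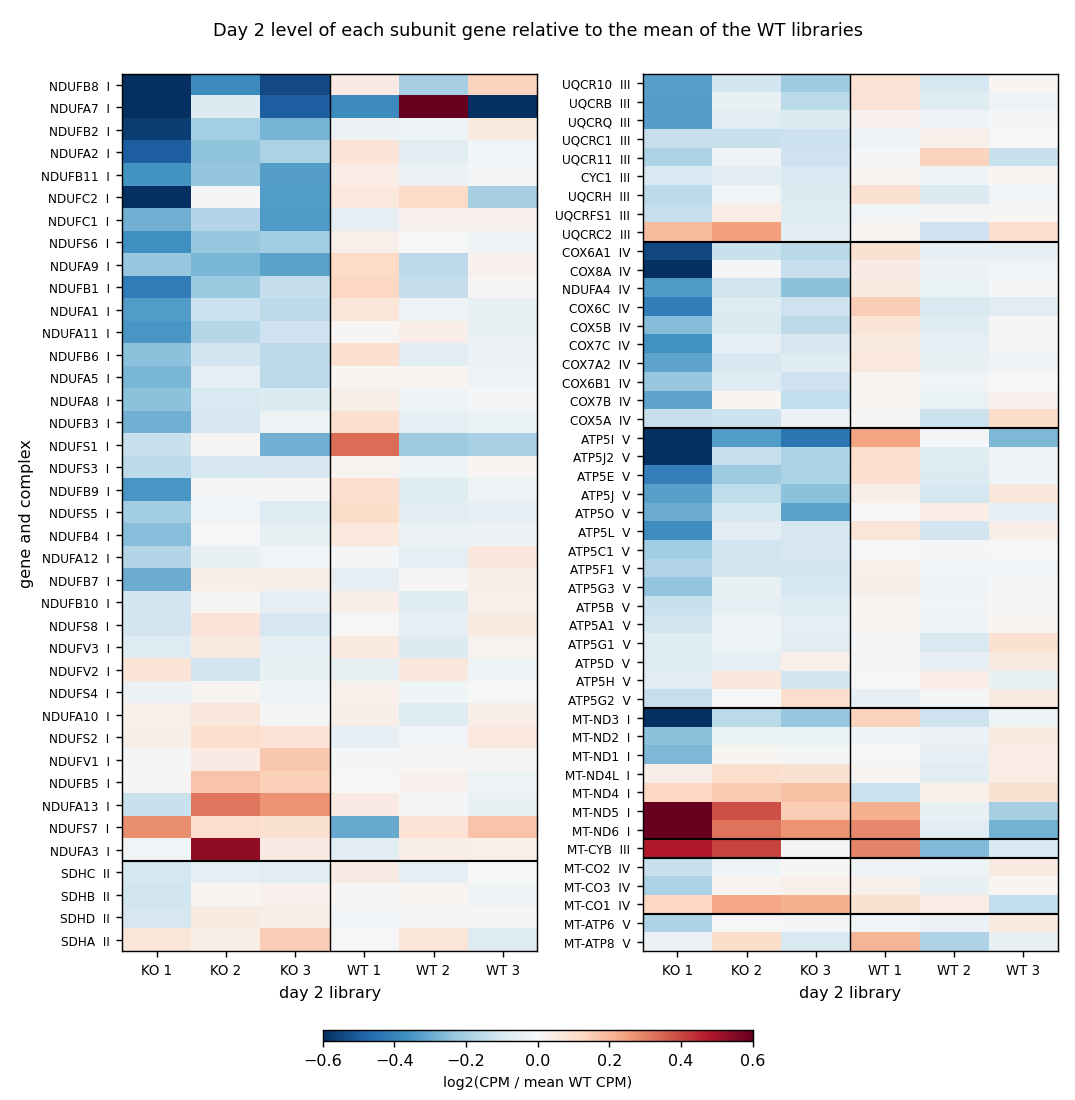
Heat map of 86 subunit genes (rows, named with their complex, separated by lines; ATP5S and UQCRHL left out) in the 6 day 2 libraries (columns, KO left of WT), as log2 of CPM over the mean WT CPM, with colours limited to 0.6 either way. Blue dominates the KO columns for nuclear genes and is deepest in KO replicate 1, while the mitochondrially encoded genes at the lower right are mixed.

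The mitochondrially encoded genes are copied from long shared transcripts and processed into single RNAs afterwards, and MT-ND6 alone of these lies on the opposite strand. Per kb of transcript, MT-CO2, the copper-binding subunit that takes electrons from cytochrome c, was the most abundant at 6822 CPM per kb over all 6 libraries, followed by MT-CO1 (5204) and MT-CO3 (4356). MT-ND5 (10.2), MT-ND6 (13) and MT-CYB (17.4 CPM per kb) were lower by a wide margin than the next gene, MT-ATP8 (344). At day 0 the same 3 genes were the lowest, at 46.3, 51.6 and 51.0 FPKM in KO and 35.2, 42.9 and 43.2 FPKM in WT cells, with all other MT- genes at 933 FPKM or more. The lowest per-kb level of a nuclear member was 0.618, the median 71.7 and the highest 407 CPM per kb, against a median of 1448 for the mitochondrially encoded genes.

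MT-ND4, a proton-pumping subunit of complex I, was at 1489.7, 1525 and 1545 CPM in KO and 1250.0, 1396 and 1456 CPM in WT libraries. All KO libraries were higher (0.15, SE 0.0427, edgeR adjusted p 0.0161), but the call was lost without KO replicate 1 or 2 or WT replicate 1 (edgeR adjusted p 0.27, 0.0555 and 0.0524). It was also lost by limma-voom (adjusted p 0.0529). MT-ND6 was at 10, 7.10 and 6.82 CPM in KO and 6.91, 5.42 and 4.64 CPM in WT libraries (0.51, SE 0.154, edgeR adjusted p 0.0165). The lowest KO and the highest WT library overlapped slightly, and the call was lost without KO replicate 1 or WT replicate 2 or 3 (edgeR adjusted p 0.163, 0.0792 and 0.103); without KO replicate 1 the log2 fold change was 0.31. MT-ND5, at 28.1, 20.1 and 17.0 CPM in KO and 17.8, 14.9 and 13.4 CPM in WT libraries, did not pass with all libraries (0.51, edgeR adjusted p 0.197). Without KO replicate 1 MT-ND5 passed (0.28, edgeR adjusted p 0.0285), as did MT-ND4L (edgeR adjusted p 0.00612; 0.0821 with all libraries). MT-ND5 also passed without KO replicate 3 (edgeR adjusted p 0.0317). With or without KO replicate 1, 2 were higher, but they were not the same genes.

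MT-CO1, the catalytic subunit of complex IV, was at 8175, 8801 and 8690.3 CPM in KO and 7971, 7739.9 and 6769 CPM in WT libraries, with no overlap, and did not pass (0.19, edgeR adjusted p 0.0871). It passed without any 1 of the WT replicates (edgeR adjusted p 0.0106 to 0.0316). MT-CO2 (-0.05) and MT-CO3 (-0.05) overlapped between genotypes, as did MT-CYB, the one complex III subunit of this genome (0.32, edgeR adjusted p 0.294). MT-CYB passed without KO replicate 3 (edgeR adjusted p 0.0204) or WT replicate 1 (edgeR adjusted p 0.0168). The ATP synthase subunits MT-ATP6 (-0.06) and MT-ATP8 (0.00) did not pass, nor did the complex I subunits MT-ND1 (-0.08), MT-ND2 (-0.10) and MT-ND3. In MT-ND2 and MT-ND3 all KO libraries lay below all WT libraries. MT-ND3 was at 557, 796 and 759 CPM in KO and 980.2, 816 and 873 CPM in WT libraries (-0.34, edgeR adjusted p 0.252), with KO replicate 1 far below the rest (-0.19 without it). The reading frames of MT-ATP8 and MT-ATP6 and of MT-ND4L and MT-ND4 overlap, and MT-ND6 cannot be told from antisense RNA without a strand setting, which is not given in the sources used here.

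**Figure D3:**
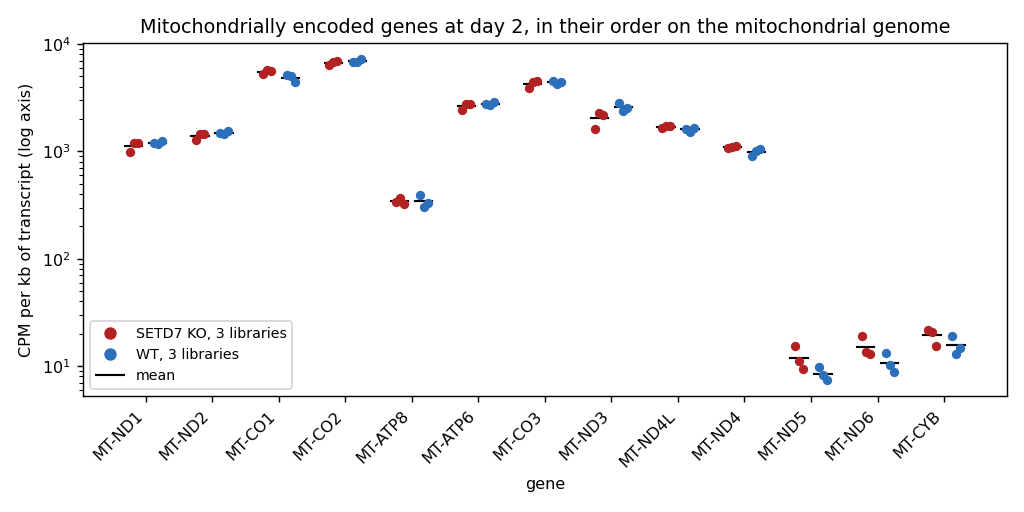
Level of the 13 mitochondrially encoded genes at day 2 in CPM per kb of transcript (log axis), in their order on the mitochondrial genome, with KO libraries (red) left of WT libraries (blue) and bars for means. MT-ND5, MT-ND6 and MT-CYB lie at 8.49 to 19.3 CPM per kb on average, far below the others.

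Short transcripts were low in KO replicate 1 across the table, and most nuclear members are short. The median transcript was 705 bases for nuclear members and 2283 bases for all tested genes, and 72% of nuclear members and 13.3% of tested genes were under 1 kb. Among the 747 tested genes under 750 bases, the median log2 level relative to the WT mean was -0.10 in KO replicate 1 and -0.03 in KO replicates 2 and 3, and 17.1% were called lower. In the 42 nuclear members under 750 bases it was -0.30 in KO replicate 1, -0.06 in KO replicate 2 and -0.11 in KO replicate 3, and 12 of them (28.6%) fell. Of 19 members of 750 to under 1500 bases 7 fell (36.8%, against 13.5% of tested genes of that length), and of 13 of 1500 to under 3000 bases 5 fell (38.5%, against 10.6%). The share of members that fell was thus above that of all genes in each of these length classes. Across the 75 members, Pearson's r between log2 length and log2 fold change was 0.29 (Spearman's rho 0.30), and r was 0.16 without KO replicate 1. These are descriptions over genes that share the same libraries.

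Removing the length trend of each library, an alternative added after the data were seen, gave 32 nuclear members lower (background 17.1%) and 0 higher (background 10.7%), with all 24 among the 32 and a median of -0.12. All tested genes then had a median of -0.03. With the trend removed and KO replicate 1 left out, 27 nuclear members were lower (background 14.9%), 22 of them among the 24, and 0 higher (background 9.13%). Called under every alternative run were 12 of the 24: NDUFB2, NDUFB8, NDUFB11, NDUFC1, NDUFS6, UQCR10, UQCRC1, NDUFA4, ATP5C1, ATP5E, ATP5F1 and ATP5J.

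**Figure D4:**
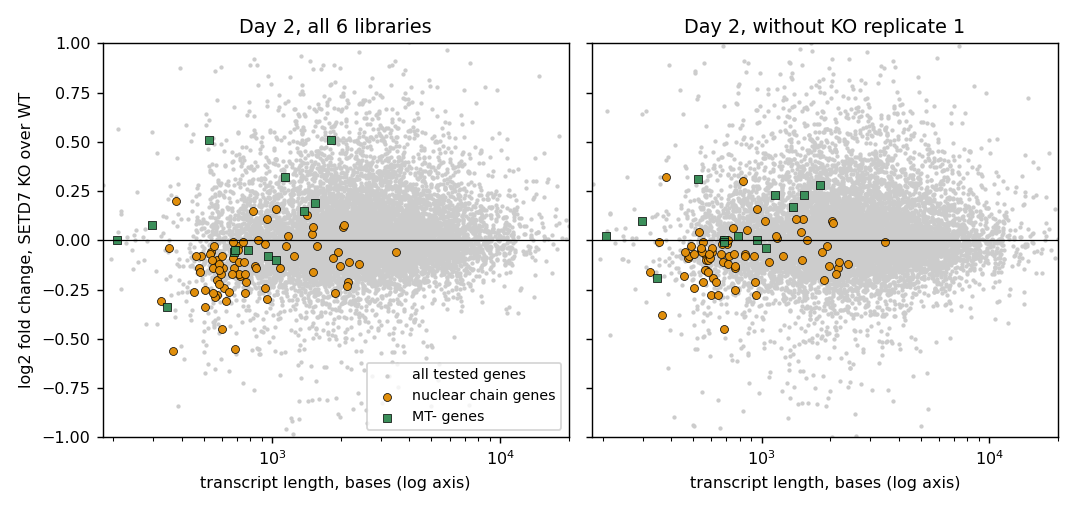
Log2 fold change (SETD7 KO over WT, day 2) against transcript length in bases (log axis) for all tested genes (grey), nuclear chain genes (orange circles) and MT- genes (green squares), with all 6 libraries (left) and without KO replicate 1 (right); the vertical axis is limited to 1 either way. Most orange points lie below 0 and at the short end, with a median of -0.13 on the left and -0.08 on the right.

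Many nuclear members have features that make counts uncertain. Of 75, 43 have a pseudogene named after them and 42 have exons that overlap another gene (13 of the 24 lowered), and whether counting used strand is not given in the sources used here. Of the 24 lowered genes, UQCR10 and UQCRC1 had neither. ATP5J lies head to head with GABPA, the DNA-binding subunit of GABP, on the opposite strand, and the promoter printed above lies within the annotated span of both genes. GABPA was at 60.4, 62.9 and 61.0 CPM in KO and 69.1, 68.8 and 65.4 CPM in WT libraries (-0.14, edgeR adjusted p 0.0255), below WT without overlap, but its call was lost without KO replicate 1 or 3 or WT replicate 1 or 2 (edgeR adjusted p 0.0577 to 0.0881). GABPA also lost its call with library size alone or replicate number as a block (edgeR adjusted p 0.0547 and 0.0504). NDUFB2 overlaps BRAF and ADCK2, NDUFB8 overlaps HIF1AN, NDUFB11 overlaps RBM10, and NDUFC1 overlaps MGARP.

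Some members had few CPM per kb at day 2 beside a high FPKM at day 0; units and tables differ, so the values are set side by side with no test. NDUFA7 was at 0.618 CPM per kb at day 2 and 39.3 FPKM at day 0, as means over libraries. NDUFA13 was at 1.98 CPM per kb and 117 FPKM, and NDUFV2 at 3.18 CPM per kb and 86.7 FPKM. Among the lowered genes, NDUFB8 was at 9.95 CPM per kb and 121 FPKM, COX6A1 at 57.1 CPM per kb and 293 FPKM, and ATP5O at 22 CPM per kb and 103 FPKM. All 6 have exons that overlap another gene, as do 42 of the 75 nuclear members. UQCRC2, at 3.02 CPM per kb and 28.8 FPKM, has no such overlap. SDHC went the other way, at 264 CPM per kb, with its length taken as 460 bases, and 19.8 FPKM. In all, 10 members were under 10 CPM in both genotypes at day 2, which limits how small a change could be seen in them.

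The genes that build or serve the chain are read against a background of 11% lower and 12.3% higher. Of 16 complex I assembly factors 1 rose and 0 fell (0 by DESeq2 in either direction): TIMMDC1 was at 61.6, 68.1 and 71.5 CPM in KO and 61.1, 58.8 and 61.7 CPM in WT libraries, overlapping (0.15, edgeR adjusted p 0.0357). TIMMDC1 lost its call without KO replicate 2 or 3 or any 1 WT replicate (edgeR adjusted p 0.0604 to 0.232) and by DESeq2 (adjusted p 0.0596). Replicate number as a block also removed it (edgeR adjusted p 0.0575). Of 10 assembly factors of complexes II and III none was called by edgeR, DESeq2 or limma-voom (at an unadjusted p under 0.05, 1 higher and 0 lower), and likewise none of 4 ATP synthase factors (0 and 0). Of 21 complex IV factors 2 fell and 0 rose, COA3 (-0.19, edgeR adjusted p 0.0178) and CMC2 (-0.22, edgeR adjusted p 0.0128). Both lost their call without KO replicate 3 or WT replicate 2, CMC2 also without WT replicate 1 and COA3 also without KO replicate 1 or WT replicate 3 (edgeR adjusted p 0.0515 to 0.124). Of 6 further chain genes that the name rule leaves out, 1 fell, NDUFAB1, the acyl carrier subunit of complex I, at 86.4, 93.1 and 89.8 CPM in KO and 98.9, 96.6 and 99.3 CPM in WT libraries (-0.13, edgeR adjusted p 0.0198; 0.0546 to 0.0856 without KO replicate 1 or 3 or WT replicate 1 or 3). Of 11 genes of coenzyme Q synthesis 1 rose, the methyltransferase COQ5 (0.19, edgeR adjusted p 0.0235; 0.0544 to 0.175 without KO replicate 3 or any 1 WT replicate).

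Among 28 genes of mitochondrial DNA expression, 6 fell and 1 rose (median -0.08), against 11% and 12.3% of all tested genes. HSD17B10, a subunit of mitochondrial RNase P, was at 61.1, 62.3 and 64.1 CPM in KO and 69.6, 73.7 and 76.5 CPM in WT libraries (-0.23, SE 0.0472, edgeR adjusted p 0.000397), without overlap. The others that fell with the smallest p were TRMT10C, also of RNase P (-0.16, edgeR adjusted p 0.0164), the RNA helicase SUPV3L1 (-0.17, edgeR adjusted p 0.0188) and the DNA-packaging transcription factor TFAM (-0.12, edgeR adjusted p 0.0215). TFAM was at 139, 151 and 150.2 CPM in KO and 162, 157 and 158 CPM in WT libraries. The RNA-binding protein GRSF1 (-0.10) and the poly(A) polymerase MTPAP (-0.17) also fell, and PNPT1, an RNA exonuclease, rose (0.13, edgeR adjusted p 0.0294). GRSF1 and MTPAP lost their calls without KO replicate 1 or WT replicate 1 or 3. Both also lost them with upper-quartile scaling, library size alone or replicate number as a block. MTPAP lost its call also without KO replicate 3 (edgeR adjusted p 0.104) and by DESeq2 (adjusted p 0.0575). Without KO replicate 1, HSD17B10 and the RNA stability factor SLIRP were lower and PNPT1 higher, SLIRP having missed the threshold with all libraries (-0.23, edgeR adjusted p 0.165). TRMT10C lost its call also without WT replicate 3, SUPV3L1 and TFAM without WT replicate 1 or 3, and PNPT1 without KO replicate 3 or WT replicate 1 or 2. TFAM also lost it with library size alone or replicate number as a block (edgeR adjusted p 0.0537 and 0.0551).

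The same background of 11% lower and 12.3% higher holds for the lists that follow, whose counts are small. Of 9 tested regulators of chain genes 2 fell and none rose (0 higher at an unadjusted p under 0.05, and 0 by DESeq2 and limma-voom). These were GABPA, above, and YY1, at 221, 225 and 221 CPM in KO and 236, 239 and 236 CPM in WT libraries (-0.09, edgeR adjusted p 0.0341). YY1 did not pass without KO replicate 3 or any 1 WT replicate (edgeR adjusted p 0.0575 to 0.126). It also did not pass with upper-quartile scaling, library size alone or replicate number as a block (edgeR adjusted p 0.0827 to 0.0937). Of 13 citric acid cycle enzymes, OGDH (-0.17, edgeR adjusted p 0.00177) and DLD (-0.13, edgeR adjusted p 0.0208), both of the 2-oxoglutarate dehydrogenase complex, fell and SUCLG2, of succinyl-CoA synthetase, rose (0.23, edgeR adjusted p 0.00186). DLD lost its call without KO replicate 1 or WT replicate 1 (edgeR adjusted p 0.124 and 0.112) and with replicate number as a block (edgeR adjusted p 0.0536). Of 20 genes of membrane channels and import, 2 fell and none rose (1 higher at an unadjusted p under 0.05, and 0 by DESeq2 and limma-voom): the phosphate carrier SLC25A3 (-0.10, edgeR adjusted p 0.0275) and the outer membrane channel VDAC3 (-0.17, edgeR adjusted p 0.00181). SLC25A3 did not pass without KO replicate 1 or 3 or WT replicate 1 or 3 (edgeR adjusted p 0.0752 to 0.146). Upper-quartile scaling, library size alone or replicate number as a block also removed its call (edgeR adjusted p 0.0692 to 0.0834). With the length trend removed, 9 of the 20 genes of membrane channels and import and 11 of the 28 of mitochondrial DNA expression were lower, against a background of 17.1% under that alternative.

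At day 0, with 1 library per genotype, no test can be made, and the ratios have no replicate check. The log2 ratio of FPKM + 1 (KO over WT) had a median of -0.01 over 81 nuclear members and of 0.23 over the 13 mitochondrially encoded members, against -0.03 over 13284 genes of at least 1 FPKM. Of the nuclear members, 8 were past 1.2-fold lower (background 26.5%) and 9 past 1.2-fold higher (background 18.9%), and 41 were below 0. Of the mitochondrially encoded members, 0 were past 1.2-fold lower, 5 past 1.2-fold higher and 2 below 0. The nuclear members thus showed no common shift at day 0, and a smaller share of them than of all genes was past 1.2-fold in either direction.

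**Figure D5:**
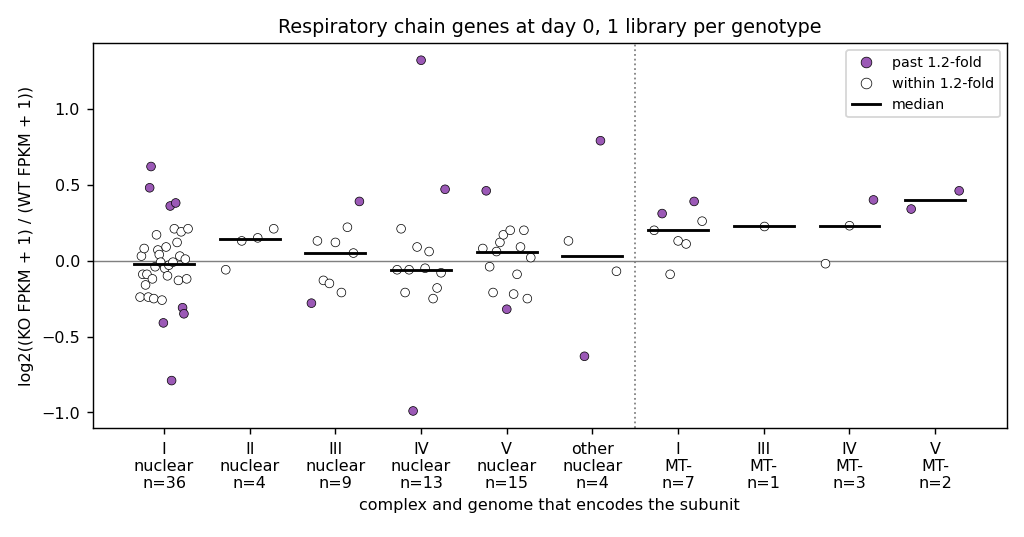
Log2 ratio of FPKM + 1 at day 0 (SETD7 KO over WT, 1 library each) of the 94 respiratory chain genes by complex, nuclear left and mitochondrially encoded (MT-) right of the dotted line; filled points are past 1.2-fold and bars are medians. Nuclear medians lie between -0.06 and 0.14, and the MT- medians between 0.20 and 0.40.

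In complex I the largest ratios at day 0 among genes of at least 5 FPKM were those of NDUFC1, at 17.7 FPKM in KO and 31.4 FPKM in WT cells (-0.79), and NDUFA6, at 11.5 and 7.14 FPKM (0.62). NDUFC1 was the 1 gene lowered at day 2 that was also past 1.2-fold lower at day 0. In complex II they were SDHD (52.1 FPKM in KO and 44.9 in WT, 0.21) and SDHC (20.9 and 18.7, 0.15). In complex III they were UQCRQ (64.2 FPKM in KO and 48.8 in WT, 0.39) and CYC1 (53.1 and 64.7, -0.28). In complex V they were ATP5B (269 FPKM in KO and 196 in WT, 0.46) among nuclear genes and MT-ATP8 (6590.0 and 4803, 0.46) among mitochondrially encoded ones, followed by MT-ATP6 (1181 and 933, 0.34) and ATP5G2 (102 and 127, -0.32). Of the 24 genes lowered at day 2, 10 had a day 0 ratio below 0, 1 was past 1.2-fold lower and 2 past 1.2-fold higher.

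Complex IV has tissue isoforms, which could be compared at day 0. COX6B2, the testis form, was at 4.99 FPKM in KO and 10.9 FPKM in WT cells (-0.99), while COX6B1, the common form, was at 163 and 169 FPKM (-0.06). COX7A1, the heart and muscle form, was at 1.61 FPKM in KO and 0.0422 FPKM in WT cells (1.32), while COX7A2 was at 115 and 119 FPKM (-0.05). NDUFA4L2, a paralog of NDUFA4 induced by hypoxia, was at 1.36 FPKM in KO and 0.702 FPKM in WT cells (0.47), while NDUFA4 was at 92.1 and 97.4 FPKM (-0.08). In each pair the common form was the more abundant by far and lay close between genotypes, and the rare forms were near the 1 FPKM minimum except COX6B2. COX7C had the next largest ratio of complex IV nuclear genes of at least 5 FPKM (376 FPKM in KO and 447 in WT, -0.25).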

How the data were processed

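RNA was measured in 8 libraries. Per the labels' protocols, TRIzol was used for extraction and a SMARTER mRNA-Seq kit for the libraries. The submitters' processing notes name HISAT2, StringTie and GRCh38 (hg38) with no versions; how reads were counted, and with which strand setting, is not given in the sources used here. Day 2 was deposited as counts per gene and day 0 as FPKM, per the file headers, and the 2 tables were analysed apart. Day 2 counts were filtered (filterByExpr), scaled by TMM and tested over 11475 genes with edgeR 4.0.16 in R 4.3.3 (robust quasi-likelihood F test, 2-sided, genotype only, Benjamini-Hochberg adjusted p under 0.05), a step also tested on simulated data. Alternatives used DESeq2 1.42.0 and limma-voom (limma 3.58.1). CPM per kb used the middle length of a gene's protein-coding transcripts in GENCODE 29 (GRCh38), to which 11640 of 11644 symbols matched. Per-kb values, their ranks and the length classes rest on this 1 length per gene. Which transcripts the cells used was not examined. Exon overlaps came from bedtools 2.31.1. Day 0 ratios used a pseudocount of 1 FPKM and left out genes under 1 FPKM in both libraries. Python 3.11.15, pandas 2.3.3, numpy 2.4.6 and matplotlib 3.10.9 were used for counts, medians and plots. Values were named for every mitochondrially encoded gene, for up to 4 called genes per complex by smallest p, for the most abundant gene per complex, for isoform pairs, for called genes of the pathway lists (up to 4 each) and, at day 0, for the 2 largest ratios per complex; a few others were added after their values were seen. The members and lists were chosen with earlier results of these data known. Replicate numbers did not pair the libraries: same-numbered KO and WT libraries had correlations of their deviations of -0.07, -0.07 and -0.04.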

Additional observations from a re-analysis of the deposited data

Results flagged for a closer look

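NDUFA5 and ATP5B moved in opposite directions on the 2 days. NDUFA5, an accessory subunit of complex I, was at 40.5 FPKM in KO and 28.7 FPKM in WT cells at day 0 (log2 ratio 0.48, 1 library each), and its log2 fold change at day 2 was -0.16 (edgeR adjusted p 0.0105), with all 3 KO libraries below all 3 WT libraries. ATP5B was at 269 FPKM in KO and 196 FPKM in WT cells at day 0 (log2 ratio 0.46), and its log2 fold change at day 2 was -0.09 (edgeR adjusted p 0.0331), again with all KO libraries below all WT libraries. NDUFA5 lost its day 2 call without KO replicate 1 (edgeR adjusted p 0.0932), and ATP5B lost it under 8 alternatives, among them leaving out KO replicate 1 or 3 or any 1 WT replicate (edgeR adjusted p 0.0746 to 0.126). The difference between the days was not tested, since day 0 has 1 library per genotype and the tables differ in unit.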

How the results depend on the processing

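The nuclear members had 15 to 33 lowered genes when 1 library was left out (15 without KO replicate 1), 21 to 25 under other scalings, filters, tools and the block, and 0 higher in all of them; their median stayed between -0.16 and -0.08. With 1 library left out, complex I had 5 to 13 lowered genes, complex III 2 to 5 and complex IV 1 to 7; 2 to 4 mitochondrially encoded genes were higher except without KO replicate 2, where 1 was, giving a range of 1 to 4, and their median ranged from -0.06 to 0.09. Complex IV had 3 lowered genes with upper-quartile scaling. Limma-voom called 1 mitochondrially encoded gene higher. With the length trend removed, alone or without KO replicate 1, complex III had 4 lowered genes; alone it also gave 1 mitochondrially encoded gene lower (MT-ND2). Of the members, 7 reversed, none of them called: without KO replicate 1, MT-CO3 was at 0.02, SDHB at 0.02, NDUFB7 at 0.04 and ATP5G2 at 0.06, and with the length trend also removed MT-CO3 was at 0.01, NDUFB7 at 0.02, ATP5G2 at 0.04 and ATP5S at -0.01. ATP5G2 was at 0.01 with upper-quartile scaling and with library size alone. With 1 library left out, log2 fold changes ranged from -0.08 to 0.02 for MT-CO3, -0.05 to 0.02 for SDHB, -0.13 to 0.04 for NDUFB7, -0.07 to 0.06 for ATP5G2, -0.08 to 0.02 for NDUFV2 and -0.22 to 0.07 for NDUFS1. The cause of these changes was not tested. At day 0 the nuclear median was -0.02 at a minimum of 5 FPKM and 0.02 when centred on all genes, and the mitochondrially encoded median was 0.24 with a pseudocount of 0.1 FPKM and 0.27 when centred. With replicate number as a replicate block, 23 nuclear members were lower and 5 mitochondrially encoded ones higher (MT-CO1, MT-CYB, MT-ND4, MT-ND5 and MT-ND6). Among single member genes called with all libraries, 41 of 390 repeats under these alternatives lost the call and 349 kept it, and 32 of 926 repeats of uncalled members gained one. The only MT- genes in the day 2 counts are the 13 subunit genes. A denominator without mitochondrial ribosomal and transfer RNA genes could therefore not change the shares. Counts at day 0 are not known, and day 2 members under 10 CPM limit what can be seen.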
